A study of Rattus norvegicus with 8 samples.

Results

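The central myelin genes Mbp, Mobp, Mog, Mag, Cnp, Mal, Cldn11, Ugt8 and Opalin were followed in the lumbar spinal cord of stressed and control rats. Every probe that the array files name for one of these 9 genes was taken, which gave 9 of the 26514 gene names and 14 of the 30367 probes of the array. Of the 9 genes, 5 have 1 probe and 4 have more. All 14 probes were well above background on all 8 arrays, and none was saturated.

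RNA of the L6S1 segments came from male Wistar rats of 12 weeks, 4 under chronic stress by water avoidance (WA) and 4 controls, with 1 Agilent 1-colour array per rat. In this stress model a rat stays on a small platform surrounded by water. Sessions were held on 10 days, and tissue was taken 24 h after the last one. The control rats were handled instead.

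In the central nervous system, oligodendrocytes wrap axons in a compacted spiral of membrane, the myelin sheath, which insulates the axon between the nodes of Ranvier. The sheath is rich in galactolipids, and a small set of proteins holds its layers together, seals its edges and faces the axon. The spinal cord is rich in this tissue, so its RNA carries these transcripts at high levels. Schwann cells, which myelinate the nerve roots, also make Mbp, Mag, Mal and Cnp, while Mog, Mobp, Cldn11 and Opalin are known mainly from oligodendrocytes. In RNA of whole tissue, fewer cells of a type and less RNA per cell cannot be told apart.

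Values below are log2 processed signals minus the 75th percentile of each array, so 0 is the 75th percentile. Differences are stressed minus control on this log2 scale, with the standard error (SE) and the Benjamini-Hochberg adjusted p of limma over 23677 tested probes. The exact permutation test was two-sided over 70 choices of 4 rats from 8, and its smallest possible p is 0.0286. The level of a probe also depends on the probe itself, so levels of different probes are not set against each other.

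The stressed rats had higher mean signals at 13 of the 14 myelin probes, or at 12 with quantile normalization and 9 with scaling to the median of each array, and 59.6% of all tested probes were higher in this way. Scaling to the median moves every difference by -0.11. At a false discovery rate (FDR) below 0.1, 1 probe was called, the Mog probe, which was higher in stressed rats. Of all tested probes, 3.74% were called in either direction and 2.77% as higher, and 1 of 14 is near this background. No myelin probe passed FDR below 0.05, which 0.477% of all tested probes did. At an unadjusted p below 0.05, 4 myelin probes were higher and 0 were lower, against 13.6% and 6.67% of all tested probes. These were the probes of Mog, Cldn11 and Cnp and the 5′ probe of Opalin. The median difference was 0.33 for the myelin probes and 0.06 for all tested probes.

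The probes that the results turn on are shown first, 5′ to 3′, as the array files give them. The first 4 are whole probes of 60 bases, for Cnp, Cldn11, Ugt8 and the 5′ position of Mobp, which had the differences from 0.39 to 1.69 described below.
Cnp, position 1202: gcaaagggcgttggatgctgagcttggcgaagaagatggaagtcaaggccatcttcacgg
Ugt8, position 1621: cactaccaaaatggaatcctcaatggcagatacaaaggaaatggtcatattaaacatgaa
Cldn11, position 757: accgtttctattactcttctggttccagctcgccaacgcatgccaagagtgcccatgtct
Mobp, position 258: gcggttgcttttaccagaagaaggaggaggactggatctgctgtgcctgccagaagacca
A position is the start of the probe in its reference transcript, counted from the 5′ end. The next 3 are stretches of 30 bases: the first bases of the called Mog probe and of the 3′ Opalin probe, and the last bases of a Mag probe, with capitals on the hexamer AATAAA.
Mog, position 1387: aggaccttgagaagcaagggtcgagaactg
Opalin, position 2586: agaatcttcatttcaagttgttttcactaa
Mag, position 2325: aaaagggacatgaAATAAAtgtcctaatga

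AATAAA is the usual signal for polyadenylation, which lies near the 3′ end of a transcript. It was searched as written and as its reverse complement TTTATT. As written, it stands in 2 of the 14 myelin probes, those of Mag at position 2325 and of Mbp at position 2094, and in 9.22% of all tested probes of this length. TTTATT stands in 0 myelin probes and in 3.06% of all tested probes. The probes of Mag and Mbp with AATAAA had differences of 0.04 and 0.27, and the median of all tested probes with it was -0.02, against 0.07 without it. GC content above 50% was found in 4 myelin probes, those of Cnp, Cldn11, Mobp at position 258 and Opalin at position 393, and in 24.1% of all tested probes. Their differences were between 0.39 and 1.69. Over all tested probes, the median difference was 0.11 above 50% GC and 0.05 at or below it.

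Mog, myelin oligodendrocyte glycoprotein, sits on the outermost face of the sheath. Its probe starts at base 1387 of the transcript and lies on the rn4 assembly at chromosome 20, bases 1611776 to 1611835, on the + strand. The signal of Mog was 2.87, 2.86, 2.96 and 2.71 in stressed rats 1 to 4 and 1.58, 2.34, 1.68 and 2.22 in control rats 1 to 4. All stressed rats were above all control rats, with the control rats spread more widely. The rise was 0.90 (SE 0.18, 95% interval 0.48 to 1.32, limma adjusted p = 0.0721), a fold of 1.86, and the exact permutation test gave p = 0.0286, its smallest value. Of all tested probes, 6.65% were without overlap in this direction, and among the myelin probes 2 of 14 were.

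The other of these was Cldn11, claudin 11, which forms the tight junctions between the layers of central myelin. Its probe lies on chromosome 2, bases 116627458 to 116627517, on the - strand. Cldn11 signals were 1.25, 1.24, 1.41 and 1.12 in stressed rats 1 to 4 and 0.32, 1.09, 0.47 and 0.78 in control rats 1 to 4. The groups did not overlap, but the second control rat came within a short distance of the lowest stressed rat. The difference was 0.59 (SE 0.17, 95% interval 0.21 to 0.98), and with a limma adjusted p of 0.132 it missed the threshold.

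**Figure D1:**
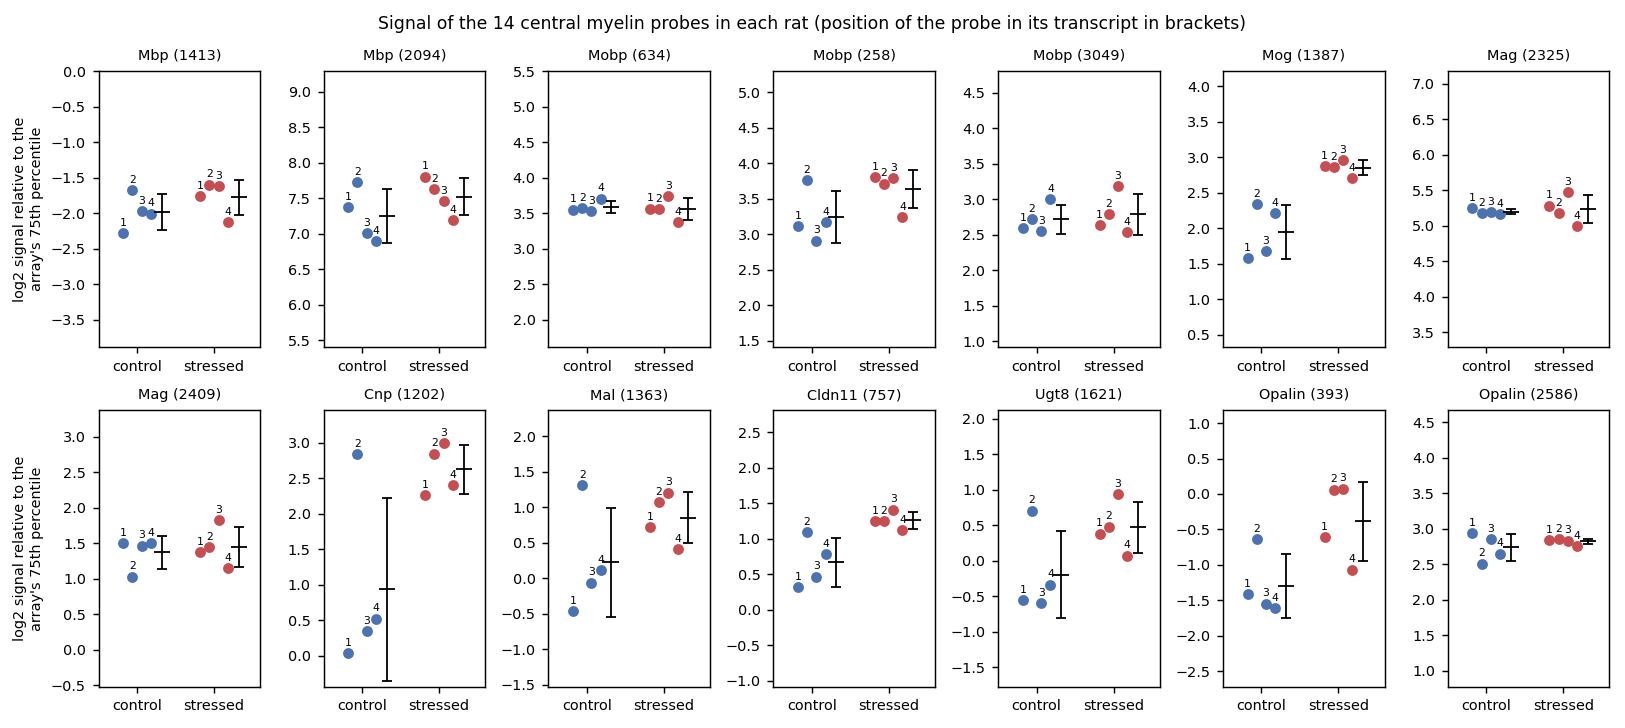
Each panel plots the log2 signal of 1 myelin probe over the 75th percentile of its array, for 4 control rats (blue) and 4 stressed rats (red) numbered as replicates, with the mean and SD in black. All panels span the same range of log2 units, and the groups are apart without overlap for Mog and Cldn11 and share their range in the other panels.

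Mag, myelin-associated glycoprotein, is an adhesion molecule of the innermost sheath layer that faces the axon. Its 2 probes lie 84 bases apart on chromosome 1, on the - strand. At position 2325, which has 1 spot per array, Mag read 5.28, 5.18, 5.47 and 5.0 in stressed rats 1 to 4 and 5.25, 5.18, 5.20 and 5.17 in control rats 1 to 4. The control values lay close together inside the range of the stressed rats. The difference was 0.04 (SE 0.10, 95% interval -0.21 to 0.28, limma adjusted p = 0.862). At position 2409, which has 10 spots per array, the difference was 0.07 (SE 0.17, 95% interval -0.32 to 0.46, limma adjusted p = 0.819). There, control rat 2 was the lowest of all rats at 1.03, and the other control rats lay between 1.47 and 1.5.

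Mbp, myelin basic protein, joins the inner faces of the compacted membrane, and its gene gives several isoforms. It has 2 probes on chromosome 18, with starts 30822 bases apart, on different reference transcripts. At position 2094 the Mbp signal was 7.80, 7.62, 7.46 and 7.19 in stressed rats 1 to 4 and 7.37, 7.72, 7.0 and 6.89 in control rats 1 to 4. The ranges overlapped, with stressed rat 1 highest and control rat 2 next to it. The difference was 0.27 (SE 0.21, 95% interval -0.21 to 0.75, limma adjusted p = 0.474). At position 1413 it was 0.21 (SE 0.16, 95% interval -0.17 to 0.58, limma adjusted p = 0.478), also with overlapping groups. The spots of the probe at position 2094 had an SD of 0.256 within an array, the highest of the probes with repeated spots, whose median was 0.045.

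Mobp, myelin-associated oligodendrocyte basic protein, is another basic protein of the compact sheath and has 3 probes on chromosome 8, on the + strand. At position 258 the Mobp signal was 3.80, 3.71, 3.79 and 3.24 in stressed rats 1 to 4 and 3.12, 3.77, 2.91 and 3.18 in control rats 1 to 4. The stressed rats were above control rats 1, 3 and 4, while control rat 2 lay among the highest. The difference was 0.39 (SE 0.21, 95% interval -0.08 to 0.87, limma adjusted p = 0.314). At position 3049 of the same transcript it was 0.07 (SE 0.16, 95% interval -0.30 to 0.45, limma adjusted p = 0.811). The third probe, at position 634 of another reference transcript, was the single myelin probe with a lower mean in stressed rats, by -0.03 (SE 0.09, 95% interval -0.24 to 0.19, limma adjusted p = 0.879).

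Cnp, an enzyme of oligodendrocytes that hydrolyses cyclic nucleotides and keeps cytoplasmic channels in the sheath, had the largest difference of the 14 probes. Its probe lies on chromosome 10, bases 89524880 to 89524939, on the + strand. Cnp signals were 2.27, 2.85, 2.99 and 2.40 in stressed rats 1 to 4 and 0.03, 2.84, 0.34 and 0.52 in control rats 1 to 4. Control rats 1, 3 and 4 were far below every stressed rat, and control rat 2 lay among the stressed rats. The difference was 1.69 (SE 0.58, 95% interval 0.35 to 3.04), a fold of 3.23 with an interval of 1.27 to 8.22. It did not pass the adjustment (limma adjusted p = 0.181), and the exact permutation test gave p = 0.0857.

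Mal, a proteolipid of glycolipid-rich membrane, also had control rats 1, 3 and 4 below the other rats. Its signal was 0.72, 1.07, 1.21 and 0.41 in stressed rats 1 to 4 and -0.47, 1.31, -0.06 and 0.11 in control rats 1 to 4. Control rat 2 was the highest of all 8 rats, and the other control rats were below every stressed rat. The difference was 0.63 (SE 0.37, 95% interval -0.23 to 1.49, limma adjusted p = 0.363).

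Ugt8, the enzyme that makes galactosylceramide, the chief lipid of myelin, was 0.39, 0.48, 0.95 and 0.07 in stressed rats 1 to 4 and -0.55, 0.71, -0.59 and -0.34 in control rats 1 to 4. Here again only control rat 2 overlapped the stressed rats. The difference was 0.66 (SE 0.31, 95% interval -0.06 to 1.39, limma adjusted p = 0.277).

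Opalin, a membrane glycoprotein of the oligodendrocyte, has probes at both ends of a single transcript on chromosome 1, on the - strand. At position 393 the signal was -0.60, 0.06, 0.08 and -1.07 in stressed rats 1 to 4 and -1.42, -0.64, -1.54 and -1.61 in control rats 1 to 4. All stressed rats were above control rats 1, 3 and 4, and control rat 2 lay within their range. The difference was 0.92 (SE 0.32, 95% interval 0.19 to 1.65), with a limma adjusted p of 0.181 and an exact permutation p of 0.0571. At position 2586 the signal was 2.84, 2.85, 2.83 and 2.76 in stressed rats 1 to 4 and 2.94, 2.51, 2.85 and 2.65 in control rats 1 to 4. These values overlapped, and the difference was 0.08 (SE 0.10, 95% interval -0.15 to 0.32, limma adjusted p = 0.656).

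**Figure D2:**
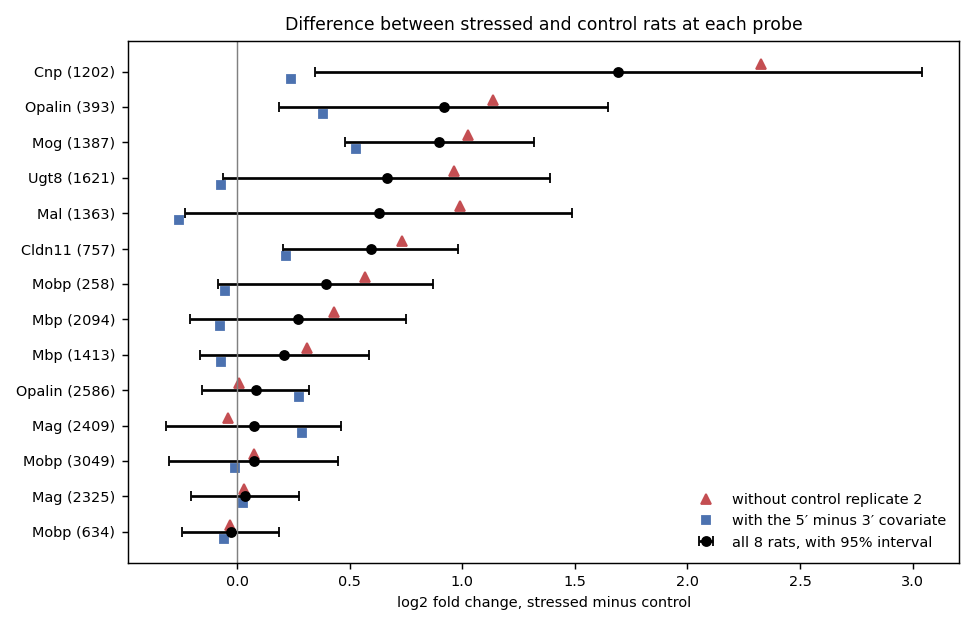
The log2 fold change, stressed minus control, is plotted for each myelin probe with its 95% interval over all 8 rats (black), beside the value without control replicate 2 (red triangles) and the value with the 5′ minus 3′ covariate of the array (blue squares). The black points run from -0.03 to 1.69, and the triangle of Cnp lies at 2.33 and its square at 0.24.

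The probes of 1 transcript at different positions were then compared within each rat. For Opalin, the 5′ minus 3′ difference in log2 signal was -3.44, -2.78, -2.76 and -3.82 in stressed rats 1 to 4 and -4.35, -3.14, -4.39 and -4.25 in control rats 1 to 4. Control rat 2 stood with the stressed rats and apart from the other control rats. The mean was -3.20 ± 0.52 (SD, n = 4) in stressed and -4.04 ± 0.60 (SD, n = 4) in control rats. The stressed rats were higher by 0.83 (SE 0.35), which did not pass the adjustment over the 1885 transcripts that carry probes 300 bases or more apart (limma adjusted p = 0.169).

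For Mobp, the 5′ minus 3′ difference was 1.17, 0.92, 0.60 and 0.70 in stressed rats 1 to 4 and 0.53, 1.05, 0.36 and 0.17 in control rats 1 to 4. The groups overlapped through control rat 2, and the stressed rats were higher by 0.32 (SE 0.21, limma adjusted p = 0.318). Over all 1885 transcripts the median was 0.28, 80.3% were higher in stressed rats and 8.54% were called at FDR below 0.1, against 0 of these 2 myelin transcripts. The value of Opalin lay at the 92.8th percentile of all transcripts and that of Mobp at the 54.4th.

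**Figure D3:**
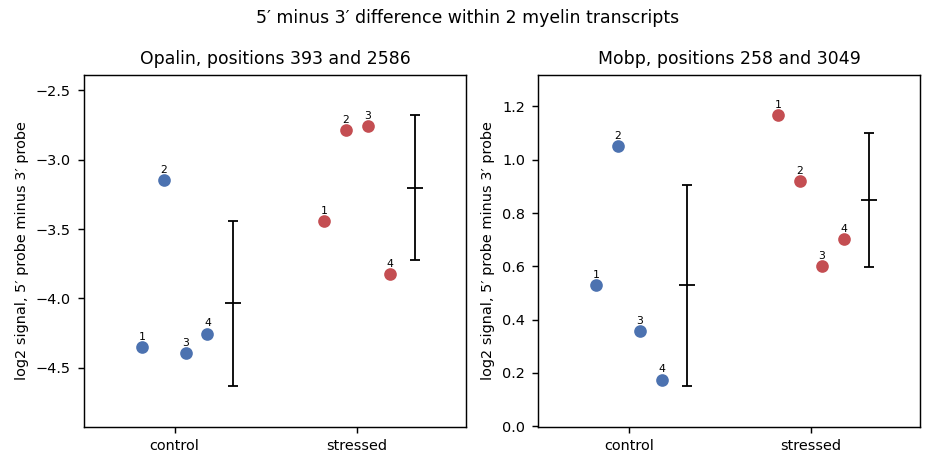
The 5′ minus 3′ difference in log2 signal is plotted for Opalin and Mobp in each of 4 control rats (blue) and 4 stressed rats (red), numbered as replicates, with the mean and SD in black. In both transcripts control rat 2 lies among the stressed rats, at -3.14 for Opalin and 1.05 for Mobp.

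The 5′ minus 3′ difference of the whole array moved with these results. Its median over transcripts, centred over the arrays, was between 0.09 and 0.17 in the stressed rats, 0.22 in control rat 2 and between -0.30 and -0.18 in the other control rats. The first principal component, with 54.1% of the variance, also put control rat 2 (46.1) beside the stressed rats (8.23 to 34.5) and apart from the other control rats (-56.3 to -39.4). The 8 arrays shared 1 slide, where row 1 held every stressed rat and row 2 every control, so row and group cannot be told apart. When this array value entered the fit as a covariate, the median difference was 0.01 for the 14 myelin probes and -0.04 for all tested probes. In this fit 0 myelin probes were called by limma, against 10.1% of all tested probes at FDR below 0.1. At an unadjusted limma p below 0.05 there were 2 myelin probes, and 5520 of the 23677 tested probes. Mog was then 0.53 (limma adjusted p = 0.102), Opalin at position 393 was 0.38, Cnp 0.24, Cldn11 0.22, Ugt8 -0.07 and Mal -0.26. Apart from control rat 2, this array value followed the group, so the fit separates value and group mainly through that rat. What part transcript coverage had in the differences was not tested.

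Control rat 2 was not below all of the stressed rats at 10 of the 14 myelin probes, and at 77.5% of all tested probes. All 4 stressed rats were above control rats 1, 3 and 4 at 7 of the 14, those of Mog, Cldn11, Cnp, Mal and Ugt8 and the 5′ probes of Mobp and Opalin, against 29.8% of all tested probes. Without control rat 2, a choice made after its values were seen, 8 of 14 were called at FDR below 0.1, while 42.4% of all tested probes were. The probes called were these 7 and the Mbp probe at position 2094. The differences were then 2.33 for Cnp, 1.14 for Opalin at position 393, 1.03 for Mog, 0.99 for Mal, 0.96 for Ugt8, 0.73 for Cldn11 and 0.57 for Mobp at position 258. The Mbp probes at positions 2094 and 1413 gave 0.43 and 0.31. The 2 Mag probes, the other 2 Mobp probes and the 3′ Opalin probe stayed between -0.04 and 0.07. With control rat 2 kept and any other rat left out, no myelin probe was called, Mog included. Among all tested probes, 0, 0, 49 and 72 were called without stressed rats 1 to 4, and 37 without control rat 1. The difference of Mog was at least 0.77 with any single rat left out.

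**Figure D4:**
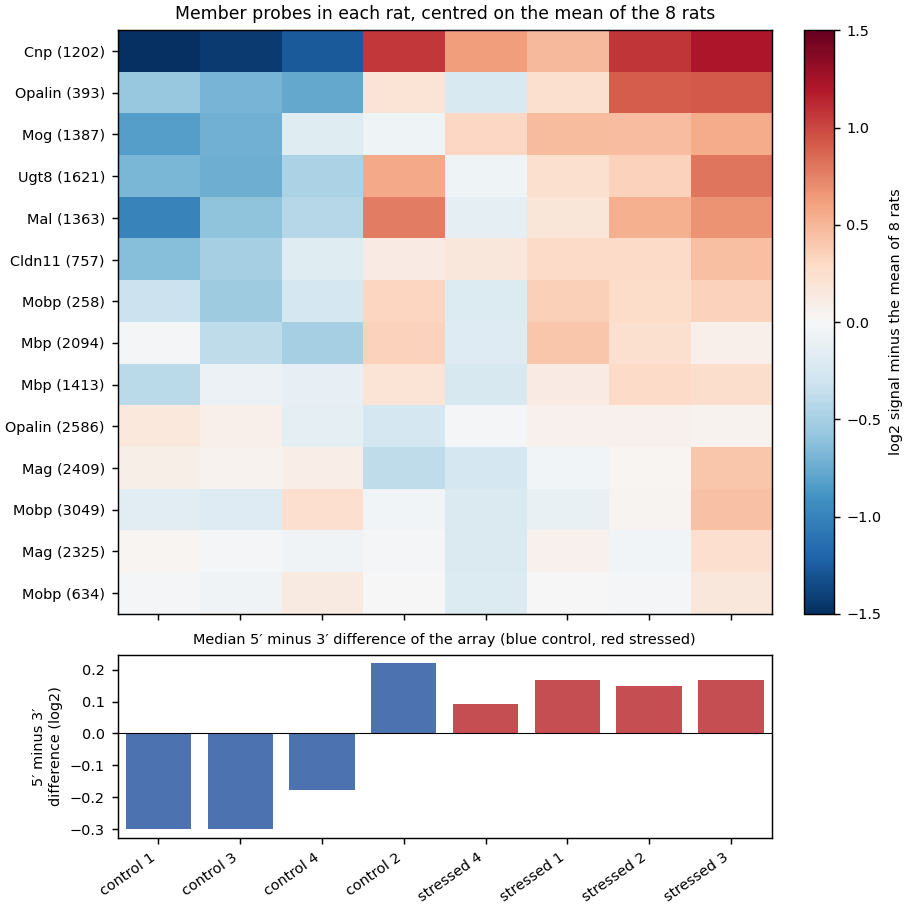
The upper panel gives the log2 signal of each myelin probe (rows, ordered by difference) in each rat (columns) minus the mean of the 8 rats, and the lower panel gives the median 5′ minus 3′ difference of each array in log2 units. Control rats 1, 3 and 4 are low at the upper probes, control rat 2 is high at those of Cnp, Mal and Ugt8 and near the mean at that of Mog, and in the lower panel it has 0.22 against 0.09 to 0.17 in the stressed rats.

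The median over the 14 centred probes gives each rat a myelin profile, which was 0.21, 0.28, 0.43 and -0.20 in stressed rats 1 to 4 and -0.36, 0.17, -0.44 and -0.18 in control rats 1 to 4. Stressed rat 4 lay among the lower control rats, and control rat 2 lay close to the first stressed rat. The 5 other genes nearest to this profile over the 8 arrays were Ccnjl, Bnip2, Mepe, Cdv3 and Rbm25, with root mean square distances between 0.057 and 0.079 log2 units. The nearest myelin probe was that of Mobp at position 258, at 0.094, and the farthest was that of Cnp, at 0.926.

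Among 14 other tested genes of myelin and its paranodal junctions, 3 had a probe called as higher and 0 as lower, against 4.16% of all tested gene names with a probe called in either direction. With 1 rat left out, this count was 8 without control rat 2, 1 without stressed rat 4 and 0 in the other 6 fits. Of all tested probes, 42.4% were called without control rat 2, and 0, 0, 49 and 72 probes without stressed rats 1 to 4. Over all 8 rats the median difference of the 14 genes, by the brightest probe of each, was -0.02. The same median over the 9 central myelin genes was 0.59, the value of Cldn11. The 5 of them with 1 probe lay between 0.59 and 1.69. The 4 with more probes lay between -0.03 and 0.27 at the brightest probe. Cd9, a tetraspanin, rose by 1.84 (SE 0.33, limma adjusted p = 0.059). Omg, oligodendrocyte myelin glycoprotein, rose by 0.42 (SE 0.07, limma adjusted p = 0.0491). Ermn, a cytoskeletal protein of the outer sheath, rose at position 1253 by 0.53 (limma adjusted p = 0.0683) and at position 3198 gave -0.20 (limma adjusted p = 0.342).

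Of 10 genes of myelin lipid synthesis and turnover, 0 were called by limma at any probe. At the brightest probe of each gene, 1 was higher at an unadjusted p below 0.05, with a median of 0.11. Values there ran from -0.13 for the sulfatide-forming enzyme Gal3st1 to 1.16 for the ceramide synthase Cers2 (SE 0.44, limma adjusted p = 0.206). A dimmer probe of Fa2h, at position 389, was also higher at an unadjusted limma p below 0.05. It gave 1.005 (SE 0.27, limma adjusted p = 0.12), and the brighter Fa2h probe, at position 2156, gave 0.07. Of 7 tested transcription factors of the lineage, 0 were called at any probe. By the brightest probe of each, 1 was higher at an unadjusted p below 0.05, with a median of 0.03. By that probe Olig1 had the highest value at 0.93 (SE 0.27, limma adjusted p = 0.14) and Sox10 the lowest at -0.15. Olig2 gave 1.14 at position 588 (SE 0.46, limma adjusted p = 0.227) and 0.03 at its brighter probe, at position 2511. Of 10 tested genes of precursors and newly formed oligodendrocytes, 0 were called and 1 was lower at an unadjusted p below 0.05, with values from -0.30 for Vcan to 0.38 for Lhfpl3. Of 15 tested other genes of mature oligodendrocytes, 1 was called, the small heat shock protein Cryab, which rose by 0.43 (SE 0.09, limma adjusted p = 0.0741), and the median was 0.08.

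**Figure D5:**
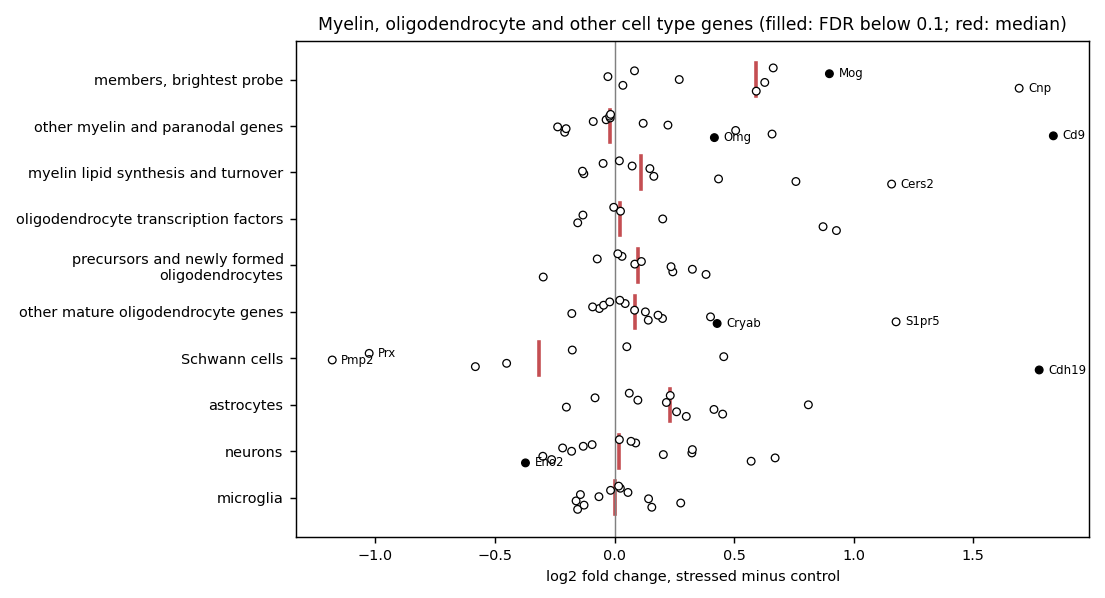
Each point is a gene at its brightest probe, placed by its log2 fold change, stressed minus control, with filled points at FDR below 0.1 and a red bar at the median of each list. The medians are 0.59 for the 9 central myelin genes, -0.02 for the other myelin genes and -0.31 for the Schwann cell genes, whose values run from -1.18 to 1.78.

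Markers of other cell types were read in the same arrays. The summed signal of 8 tested Schwann cell genes, as multiples of the 75th percentile, was 7.01 to 23.3 in control and 6.45 to 9.26 in stressed rats. Control rat 1 alone set the upper limit, and the other control rats reached 9.76. The ranges overlapped, and 5 of the 8 genes had lower means in stressed rats, from -0.18 for the transcription factor Egr2 to -1.18 for the lipid-binding protein Pmp2, with 0 of them called. Cdh19, a cadherin of Schwann cells and their precursors, was the 1 gene called in this list. Its probe was not well above background in any control rat and entered the test only through the 4 stressed rats, so its call is not counted as evidence of a difference. The measured signals of Cdh19 differed by 1.78 (SE 0.24). No minimum difference is given, since the control signals were not well above background. The part of Schwann cell RNA in the Mbp, Mag, Mal and Cnp values was not tested.

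Of 11 astrocyte genes 0 were called at any probe. By the brightest probe of each gene, 2 were higher at an unadjusted limma p below 0.05, and the median was 0.23. Gfap was highest at 0.81 and Slc1a3 lowest at -0.20 by that probe. Dimmer probes of Aqp4 (0.75), Slc1a2 (0.57) and Aldoc (0.18) were also higher at an unadjusted limma p below 0.05, and no astrocyte probe was lower. Of 12 microglia genes 0 were called and 0 had an unadjusted p below 0.05, from -0.16 for Cd68 to 0.28 for Csf1r. Of 15 neuronal genes 1 was called, the enolase Eno2, which fell by 0.37 at its brighter probe (limma adjusted p = 0.0649) and gave -0.04 at its other probe (limma adjusted p = 0.934). By the brightest probe of each, 8 of the 15 neuronal genes were above 0, and the median was 0.02. At an unadjusted limma p below 0.05, 1 of these was higher, Nefl at 0.57, and 2 were lower. Dimmer probes of Snap25 (0.40) and Slc6a5 (0.46) were also higher at this threshold. Of 6 genes of red blood cells and endothelium 1 was called, Pecam1, which rose by 0.40 (limma adjusted p = 0.0927). The 6 genes of meninges and fibroblasts lay between -0.95 for Col3a1 and -0.28 for Col1a2, and 0 had an unadjusted p below 0.05. Without control rat 2 the counts of called genes were 8 of the astrocyte, 10 of the neuronal, 2 of the microglia, 6 of the precursor and 5 of the lipid genes. They were 3 of the transcription factor, 3 of the other mature oligodendrocyte, 2 of the Schwann cell, 4 of the blood and endothelial and 0 of the meningeal genes. In this fit 42.4% of all tested probes were called, a share of probes, and the share of gene names was not taken. With any other rat left out, 0 were called in each of these lists. Among all tested probes, the fits without a stressed rat called 0 to 72.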

How the data were processed

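For each spot the authors deposited a background-subtracted fluorescence intensity made with Feature Extraction 10.7.3.1 (Agilent), per the file headers, and beside it a whole-series file of the same intensity. No normalization between arrays was found. The study names dChip, but neither its normalization nor its test. Control spots and outlier spots were left out. Each array had its 75th percentile subtracted from the log2 intensity, and repeated spots were averaged. Probes were tested if above background on at least 4 arrays, counted over both groups, which left 23677. The 2 groups entered lmFit and eBayes of limma 3.58.1 with no covariate, under R 4.3.3, with Benjamini-Hochberg adjustment. The fit was tested on simulated data with noise drawn independently for each probe and array, so variation shared by many probes was not covered. Whether the 4 rats of a group were housed or processed apart is not stated, and the number of arrays limits the precision. Coordinates are those of the files (rn4). No annotation of that build was used, so exons and UTRs are not given.

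All myelin probes are named. From each other list, the genes called at FDR below 0.1 are named, up to 4, or otherwise those with the highest and lowest difference, at the brightest probe. A gene of a list counted as called if any of its probes was, and list counts at an unadjusted p used its brightest probe. Cers2, Gal3st1, Myrf and Rbfox3 were found under older names. A few items, among them genes of these lists, are not reported here. Likeness was the root mean square distance over the 8 arrays. The members and lists were chosen with earlier results of these data known. Alternatives were other background corrections, scalings, filters, variance models, array weights, a replicate block, the 5′ minus 3′ covariate, 1 probe per gene and leaving out each array.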

Additional observations from a re-analysis of the deposited data

Results flagged for a closer look

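In 4 of 32 groups of 4 rats, the myelin values held 1 rat whose gap to its nearest neighbour took up more of the range of the group than Dixon's critical value for 4 samples allows. Chance gives this in about 1 in 20 groups, or 1.6 of 32. For Mobp at position 258, stressed rat 4 was low, with a share of 0.844. For Opalin at position 2586, stressed rat 4 was low, with 0.830. For Mag at position 2409, control rat 2 was low, with 0.917. For the 5′ minus 3′ difference of Opalin, control rat 2 was high, with 0.888.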

How the results depend on the processing

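Main values were 885 probes called at FDR below 0.1, 1 of them a myelin probe, and a median myelin difference of 0.33. With normexp background correction, 215 and 0 were called, and with no filter on dim probes 3010 and 2. With a variance trend and robust estimation 2 myelin probes were called. With array weights, which gave control replicate 2 the lowest weight (0.107), 11983 and 9 were called. With the 5′ minus 3′ covariate 2390 and 0 were called and the median was 0.0089. With each array left out in turn, 0 to 10038 probes and 0 to 8 myelin probes were called, with a median from 0.25 to 0.50. The highest of each came without control replicate 2. In both groups the replicate number was also the column of the array on the slide, so number and column cannot be told apart. Same-number correlations were 0.10, 0.12, -0.09 and 0.31, and no stressed rat was closest to the control rat of its own number. The replicate block, which is also a column block, gave 0 calls over all probes and 0 among the myelin probes. At an unadjusted limma p below 0.05 it gave 4292 and 4, with the median myelin difference at 0.33. Over all 21 alternatives, Mog kept a positive difference, from 0.53 to 1.03, with an adjusted p below 0.1 in 11 (limma adjusted p from 0.00173 to 0.22). The 11 include the whole-series file of the same intensity and leaving out saturated spots, which left Mog at its main value of 0.90. They also include array weights and the fit without control replicate 2, which called 11983 and 10038 of all probes.

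Some differences turned direction, all of them past no threshold. With normexp, Mobp at position 634 was 0.0059. With quantile normalization, Mbp at position 2094 was -0.073. With median scaling, Mobp at position 3049 was -0.042, Mag -0.080 and -0.042, and Opalin at position 2586 -0.031. With array weights, Mag at position 2409 was -0.044. With the covariate, Mbp was -0.069 and -0.077, Mobp at positions 258 and 3049 was -0.052 and -0.0086, Mal was -0.26 and Ugt8 was -0.069. With single rats left out, Mobp at position 634 ran from -0.088 to 0.034, Mobp at position 3049 from -0.060 to 0.17, and Mag from -0.045 to 0.11 and from -0.053 to 0.17. The cause was not tested. The share of calls that were higher was 74.0%, and 88.4% with normexp, 49.4% with quantile normalization and 47.2% with median scaling.

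The replicate block gave 0 called genes in every list. All myelin probes were well above background. Slide row and group cannot be told apart, and with 4 rats a group, leaving out control replicate 2 or adding the covariate changed the calls.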
